A study of Mus musculus with 3 samples.

Results

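The cells described here are Lgr5/Lhx2 keratinocytes of mouse back skin, 284 of the 32377 cells kept from 3 single-cell RNA-seq libraries. They carried the working name of hair follicle stem-like keratinocytes and are called members below. A cell was kept when it had at least 500 genes detected and at most 10% of its unique molecular identifiers (UMIs, 1 per captured RNA molecule) from mitochondrial genes. A kept cell was selected on 3 conditions. The basal keratin genes Krt5 and Krt14 together made up at least 0.5% of its UMIs. At least 1 UMI was present for 2 or more of Lgr5, Lhx2, Tbx1 and Pi15. No UMI was present for Mki67 (division), Krt25 or Krt28 (inner root sheath), Ptprc (immune cells) or Pdgfra (fibroblasts). These values chose the cells, so the levels of these genes are given only as a description.

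The study compared photoaged back skin with unirradiated skin and with irradiated skin given a topical inhibitor of the kinases JAK1 and JAK2. All mice were wild type C57BL/6J, 8 weeks old at the start and labelled as female. The control group (CON) was not irradiated, and by the study's description CON and UV both received vehicle. The UV group received UVA at 0.6 mW/cm2 together with UVB at 3.5 mW/cm2 on alternate days over 12 weeks. The Rux group had the same irradiation, each session followed by 1.5% ruxolitinib ointment. Whole-thickness skin was taken 24 h after the last session. Each group was 1 droplet library with 3-prime counts, and the number of mice in a library was not given. No test between groups was therefore possible: intervals below are exact 95% intervals that cover counting error alone, and cells are not replicates.

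Hair follicle stem cells rest in the bulge and in the hair germ beneath it, in the outer layer of the follicle. They are known for the keratin Krt15 and the surface protein Cd34, and for transcription factors such as Sox9, Lhx2, Tcf7l1, Nfatc1 and Tbx1 that keep them quiescent or hold their identity. Lgr5, a receptor for the R-spondins that amplify WNT signals, marks the lower bulge, the hair germ and the lower outer root sheath. JAK-STAT signalling, which cytokine receptors such as the oncostatin M receptor start, is known to hold the resting follicle back from growth.

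The files held 13170 CON, 12411 UV and 11287 Rux barcodes with 165337289, 133972374 and 131570327 UMIs, of which 11453, 11027 and 9897 cells were kept. Against the label of female mice, the kept cells held 17936, 15236 and 15749 UMIs of the Y-linked gene Ddx3y and only 19, 14 and 13 UMIs of Xist, which female cells transcribe from the silenced X. The mismatch applied to all 3 libraries alike. CON and UV shared 50 cell barcodes, CON and Rux 28, UV and Rux 40, and no barcode was in all 3.

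In all 3 libraries together 3606 kept cells had 2 or more of the 4 genes. The keratin condition left 608 of them and the condition on the other 5 genes left 736, and 284 met both. Of the 324 refused by the 5 genes alone, 204 had a UMI of Mki67, 117 of Krt25 and 74 of Krt28, so dividing cells and inner root sheath cells that carry the 4 genes are not described here. Close to the keratin threshold, 51 members lay between 0.5% and 0.6% of UMIs and 64 cells just outside it between 0.4% and 0.5%. For Sox9, the cells just inside stood at 558, 692 and 924 CPM (UMIs of a gene per 1000000 UMIs of the group) in CON, UV and Rux, and those just outside at 503, 476 and 454.

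Members numbered 97 in CON, 73 in UV and 114 in Rux, with 1265211, 1209664 and 1858099 UMIs in sum. Their median depth was 8456, 12608 and 14612.5 UMIs, so CON members were the shallowest. The deepest cell held 8.02%, 7.02% and 2.18% of the summed UMIs. Exactly 2 of the 4 genes were seen in 121 members, 3 in 110 and all 4 in 53. The commonest pair was Lhx2 with Tbx1 and no other, in 61 members.

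Lgr5 (chromosome 10, 115450311 to 115587780, minus strand, GRCm38) stood at 201 CPM in CON, 112 in UV and 93.1 in Rux members. Pi15 (chromosome 1, 17601901 to 17630939, plus strand), a secreted peptidase inhibitor, stood at 241, 141 and 84.5 CPM. Lhx2 (chromosome 2, 38339281 to 38369733, plus strand) was at 269, 212 and 183 CPM. Tbx1 (chromosome 16, 18580979 to 18590671, minus strand) was nearly level at 174, 175 and 153 CPM. The first 3 genes were highest in CON and lowest in Rux, and the share of members with an Lgr5 UMI had the same order, at 62.9%, 47.9% and 34.2%. With each cell thinned to 2000 UMIs these shares were 29.9%, 17.8% and 10.5%.

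UMIs of these genes were also seen in cells of other types. Whether they came from free RNA in droplets, from doublets or from the cells themselves was not tested. Immune cells, taken as cells with a Ptprc UMI and less than 0.5% of UMIs from Krt5 and Krt14, showed an Lgr5 UMI in 8.68% of cells in CON, 4.24% in UV and 4.1% in Rux, at median depths of 6867, 7208.5 and 7305 UMIs. At least 2 of the 4 genes were seen in 7.6% of CON immune cells (5.79% to 9.75%), 3.65% in UV (2.38% to 5.35%) and 2.05% in Rux (1.34% to 2.99%). Among keratinocytes with no UMI of the 5 refused genes and at least 2000 UMIs the shares were 14.9% in CON (12.2% to 17.8%), 42% in UV (34.5% to 49.7%) and 46.5% in Rux (40.2% to 53%), at deeper medians of 11253, 12062.5 and 15165 UMIs. The gap to the immune cells was narrowest in CON. After thinning to 2000 UMIs the immune shares were 1.22%, 0.146% and 0.158% and the keratinocyte shares 7.66%, 14.4% and 8.98%.

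The label was then checked on markers that the rule did not use. The comparison cells were 641 kept keratinocytes that met the same keratin and zero-UMI conditions but had none of the 4 genes (485, 70 and 86 in CON, UV and Rux). This is the same contrast as the rule and is given without a test. Of 18 follicle stem compartment markers with enough UMIs to compare, 14 were higher in members in all 3 libraries, none was lower in all 3, where 927 of 2997 genes with at least 50 CPM on average were higher and 822 lower in all 3, and Nfatc1, Foxc1, Postn and Itga6 were mixed. Of 10 outer root sheath and companion layer markers, 6 (Krt17, Barx2, Gjb2, Gjb6, Il11ra1 and Ptn) were also higher in members in all 3 and none was lower in all 3, so the cells were not set apart by stem compartment markers alone. Of 7 suprabasal markers, 5 (Krt1, Krt10, Krtdap, Lor and Grhl3) were lower in members in all 3, Sbsn was higher in all 3 and Ivl was mixed. Of 9 infundibulum and isthmus markers 3 were lower in all 3 and none higher, and of 8 interfollicular basal markers 4 were lower and 1, Trp63, was higher. The share of infundibulum and isthmus markers that were lower was thus near that of all genes.

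Cd34, the bulge surface marker, was at 64.8, 45.5 and 42.5 CPM in members of CON, UV and Rux against 8.16, 9.3 and 3.41 CPM in keratinocytes with none of the 4 genes. Sox9, a transcription factor of follicle stem cell identity, was at 515, 708 and 880 CPM against 57.4, 364 and 341. Tcf7l1, a WNT-pathway repressor of the resting bulge, was at 68.8, 120 and 133 CPM against 4.16, 1.16 and 10.2. For these 3 genes the member value lay above the other keratinocytes in each library. Alcam, an adhesion molecule, was at 852, 694 and 664 CPM against 30.6, 135 and 121, and Nfib, a factor of follicle stem cells, at 1498, 1105 and 917 CPM against 401, 402 and 336. Krt15 was at 3243, 1981 and 1850 CPM against 2761, 735 and 861, so it separated the cells least in CON. Nfatc1, a calcium-responsive factor of bulge quiescence, was higher in CON (125 against 47.4 CPM) and UV (172 against 73.3) but not in Rux (88.8 against 91.3). Fgf18, a bulge growth factor, had 0, 2 and 2 UMIs in members.

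**Figure D1:**
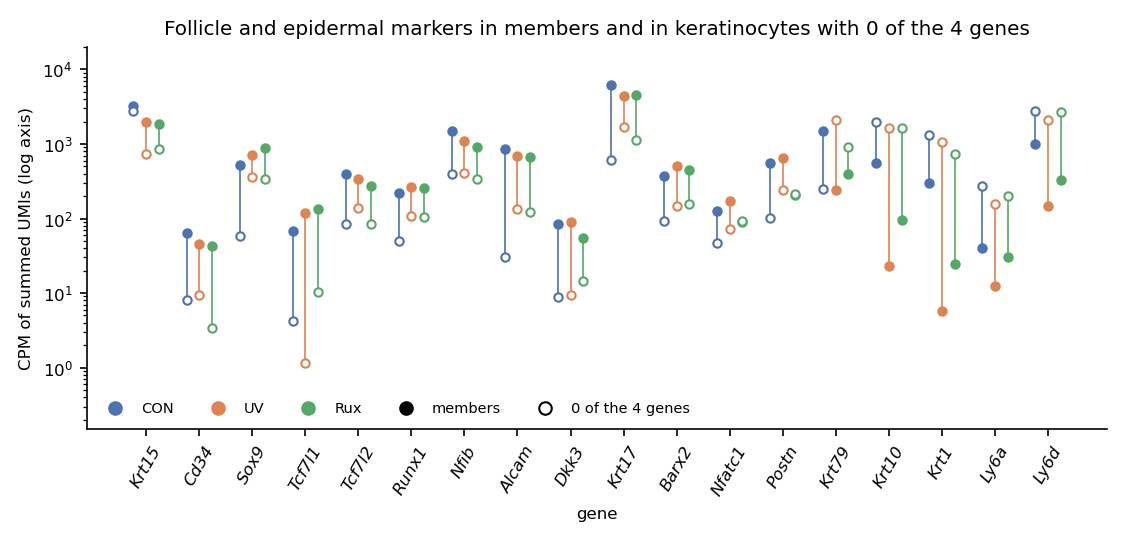
CPM (log axis) of 18 marker genes in members (filled circles) and in keratinocytes with none of the 4 genes (open circles), with 1 column each for CON, UV and Rux. Follicle markers such as Cd34, Sox9 and Alcam sat higher in members in all 3 libraries, Krt10, Krt1, Ly6a and Ly6d sat lower, and Nfatc1, Postn and Krt79 did not keep 1 direction.

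Among genes with at least 50 CPM on average, those set apart most steadily from the other keratinocytes began with Shisa2, an antagonist of WNT and FGF receptor maturation, at 115, 189 and 127 CPM against 0.8, 2.33 and 4.09. Gpc6, a heparan sulfate proteoglycan, was at 681, 549 and 441 CPM against 7.68, 18.6 and 20.4. Sfrp1, a secreted WNT inhibitor, was at 457, 427 and 315 CPM against 41.6, 31.4 and 23.2. Tnc (tenascin C), Sema3e (a guidance cue), Hmcn1, Pdzrn3, Enox1, Rflnb and S100a1 completed the 10 highest. On the lower side were Ly6a (Sca-1, a marker of the infundibulum and interfollicular epidermis) at 40.3, 12.4 and 30.1 CPM against 273, 155 and 199, and Sox6 at 75.9, 4.96 and 3.77 against 387, 115 and 138. Over 2997 genes compared in all 3 libraries, 109 were more than 2-fold higher and 47 more than 2-fold lower in members in each.

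Markers of other cell types were low but not absent. The 7 immune markers summed to 10.3, 22.3 and 19.9 CPM in CON, UV and Rux members, led by Cd74, with Cd3e at 0 in CON and UV. The 5 endothelial markers summed to 15, 9.09 and 4.31 CPM. The 6 fibroblast markers summed to 262, 331 and 571 CPM, led by Col1a1 at 81.4 CPM in CON and by Dcn at 93.4 and 167 CPM in UV and Rux, and were thus highest in Rux. The 5 melanocyte markers summed to 37.1, 121 and 16.7 CPM, and 1 UV member held 61% of the UV UMIs of Dct. The part of these cells' RNA in the comparisons below was not tested.

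Members were then clustered with each other without the 4 genes, which gave 6 subclusters, named here by number and leading genes. These genes define the subclusters and are no result between groups. Subcluster 1 held 52 cells, led by Pdzrn4 and the interleukin-31 receptor gene Il31ra, with Krt15 at 6411, Lgr5 at 445 and Cd34 at 211 CPM. Subcluster 4 held 67 cells, led by Nppc, with Krt15 at 3723, Lgr5 at 132, Cd34 at 82 and the matrix protein gene Postn at 891 CPM. Subcluster 5, of 28 cells, was led by the EGF-family ligand gene Epgn and the integrin gene Itga2, with Lgr5 at 249 CPM. These 3 subclusters carried most of the Lgr5.

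Subcluster 6, of 79 cells, was led by Rap1gap2, Sorbs2 and the parathyroid hormone-like gene Pthlh, with Sox9 at 1070, Alcam at 894 and Lgr5 at 40.9 CPM. An Lgr5 UMI was seen in 27.8% and a Krt15 UMI in 45.6% of its cells, and Cd34 was at 14.2 CPM. The outer root sheath and companion layer markers Krt16, Krt6a and Gjb2 stood at 1045, 970 and 437 CPM there. Subcluster 3, of 39 cells, was led by Klk7 and by the infundibular genes Cst6 (3916 CPM) and Krt79 (3092 CPM), with Lgr5 at 3.1 and Krt15 at 35.1 CPM. Subcluster 2, of 19 cells, was led by the epidermal keratins Krt77 and Krt1 (987 CPM) with Krt10 at 1966 CPM. The leading genes of subclusters 2 and 3 thus went against the label of stem-like cells, and 1 cell held 82% of the Krt1 UMIs of subcluster 2. In subcluster 6, the largest, the markers were split, with Sox9 and Alcam high but Lgr5 and Cd34 low. The label was therefore not settled there.

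The libraries filled the subclusters unequally. Subcluster 1 took 43.3% of CON members, 6.85% of UV members and 4.39% of Rux members. Subcluster 6 took 6.19%, 38.4% and 39.5%, and subcluster 4 took 11.3%, 30.1% and 29.8%. Subcluster 1 also had the lowest median depth, at 6630.5 UMIs, against 13171 in subcluster 6 and 13431 in subcluster 4. With 1 library a group, a subcluster drawn mostly from 1 library may be that library rather than a kind of cell, so these shares are no result on the treatments. They do bear on each comparison below, where a gene held by 1 subcluster moves with its share.

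**Figure D2:**
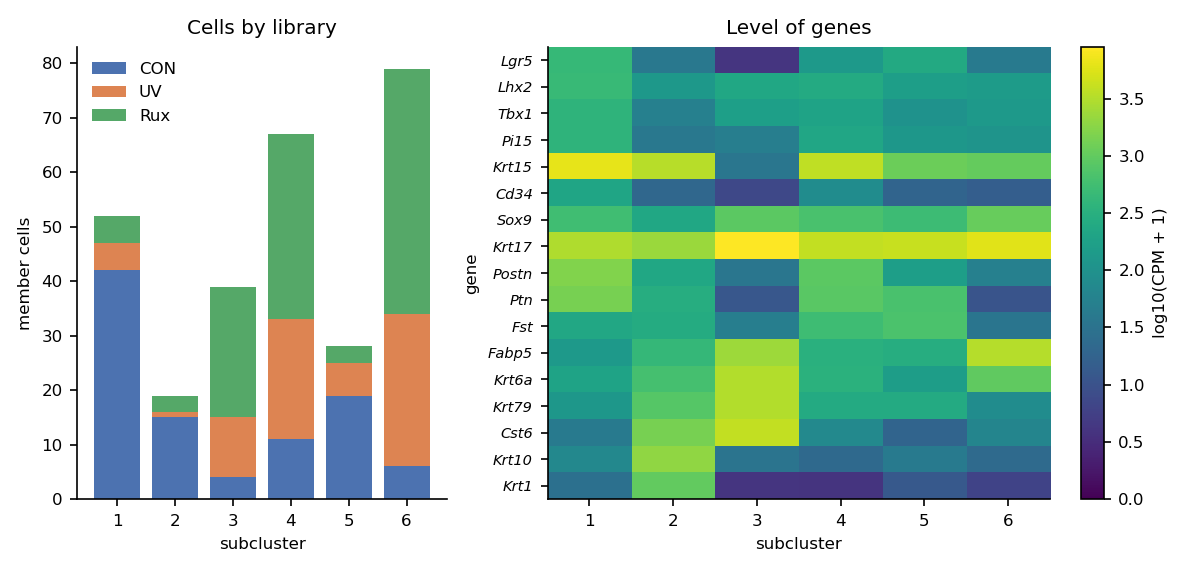
Left, the number of members in each of 6 subclusters by library (stacked bars). Right, the level of 17 genes in each subcluster as log10(CPM + 1). Subclusters 1, 2 and 5 were mostly CON, subclusters 3, 4 and 6 mostly UV and Rux, and Lgr5 and Krt15 were lowest in subcluster 3.

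As a share of kept cells, members made up 0.847% in CON (0.687% to 1.03%), 0.662% in UV (0.519% to 0.832%) and 1.15% in Rux (0.951% to 1.38%). Keratinocytes as a whole, taken by the Krt5 and Krt14 threshold alone, made up 10.6%, 3.74% and 4.98% of kept cells. Within keratinocytes members were 7.98% in CON (6.52% to 9.64%), 17.7% in UV (14.2% to 21.8%) and 23.1% in Rux (19.5% to 27.1%). CON was lowest within keratinocytes but not among all kept cells.

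These shares moved with depth. With every cell thinned to 2000 UMIs before the rule was applied, members were 7.57% of keratinocytes in CON (6.18% to 9.17%), 8.45% in UV (5.99% to 11.5%) and 7.33% in Rux (5.21% to 9.96%), and the 3 intervals overlapped. Of all thinned cells they were 0.905% in CON (0.733% to 1.1%), 0.356% in UV (0.25% to 0.493%) and 0.399% in Rux (0.281% to 0.55%), with 843, 921 and 626 kept cells too shallow to thin. Thinning also removes UMIs of the 5 refused genes. The gaps within keratinocytes thus narrowed with the whole rule applied after thinning, but overlap of intervals does not show equal shares. A second count kept the refusal of the 5 genes at full depth, in keratinocytes of at least 2000 UMIs. The share of these that met the condition on Lgr5, Lhx2, Tbx1 and Pi15 after thinning was highest in UV. It was 7.66% in CON (5.74% to 9.97%), 14.4% in UV (9.52% to 20.5%) and 8.98% in Rux (5.71% to 13.3%). Whether the libraries differed within keratinocytes at equal depth was therefore not settled.

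**Figure D3:**
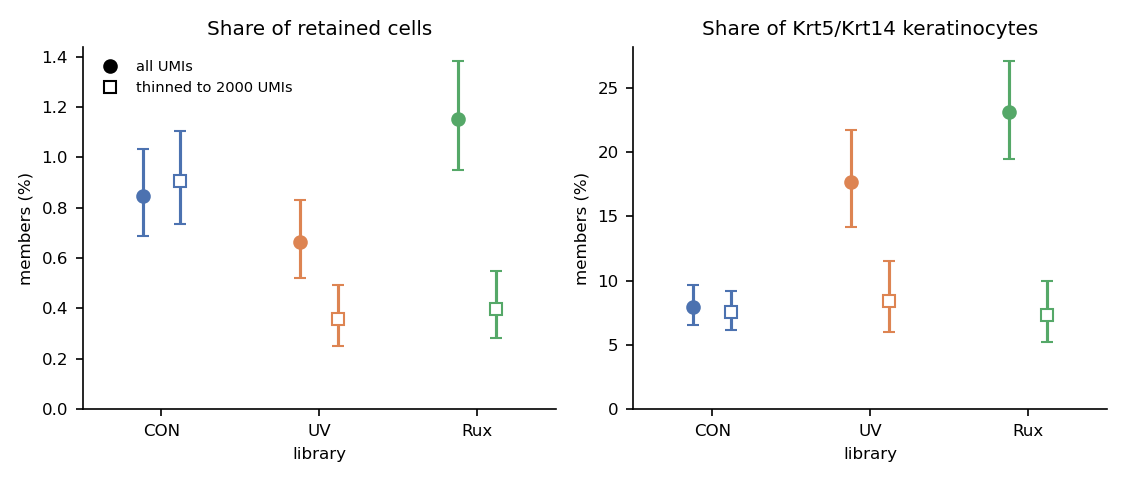
Members as a percentage of kept cells (left) and of Krt5/Krt14 keratinocytes (right) in each library, with all UMIs (filled circles) and after thinning every cell to 2000 UMIs (open squares); bars are exact 95% intervals of counting error. Within keratinocytes the spread from 7.98% to 23.1% closed to between 7.33% and 8.45% after thinning.

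UV and CON were compared in members as the log2 ratio of CPM of the summed UMIs, with 0.5 UMI added to each sum. A gene was compared when it had at least 20 CPM on average and at least 50 UMIs in the pair of libraries. Of 6622 genes, 272 (4.11%) were more than 2-fold higher in UV and 245 (3.7%) more than 2-fold lower, and the median was -0.03. These shares are the background for each list count of UV against CON below.

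The highest ratio belonged to Cmah, the enzyme that makes N-glycolylneuraminic acid, at 7.9 CPM in CON, 168 in UV and 177 in Rux. UV and Rux stood together far above CON, and the log2 ratio of UV to CON was 4.34 (3.5 to 5.49), or 0.91 with a keratin minimum of 2%, which left 1 CON and 3 UV cells. Slpi, a secreted inhibitor of leukocyte proteases, was at 15, 163 and 235 CPM with a ratio of 3.41 (2.76 to 4.2), but the ratio was 0.39 with the rule applied after thinning and 0.47 with a keratin minimum of 0.1%. With the minimum of 2% it was -1.75, and that of Sorbs2 was -0.16. The ratio of Slpi was 3.1 in keratinocytes with none of the 4 genes. Pthlh, a local signal of follicle growth, was at 78.2, 395 and 524 CPM (2.33, 2.02 to 2.66). Fabp5, a fatty acid carrier, was at 284, 1386 and 2129 CPM (2.29, 2.12 to 2.46), with ratios from 0.93 (keratin minimum of 0.1%) to 4.10 (2%) under the alternatives. For all 4 genes CON was lowest and Rux highest. Subcluster 6 held 74.4% of the UMIs of Cmah, 79.9% of Pthlh and 61.3% of Fabp5, and subcluster 4 held 50.6% of Slpi. Within subclusters 1 and 4 alone the ratio of Pthlh was -0.75. Ppfibp2, Prrg4, Cacnb4, Ccser1, Sorbs2 and Sytl2 completed the 10 highest, at log2 ratios of 2.21 to 2.73. With the keratin minimum of 2% the ratios were 0.37 for Prrg4, 0.57 for Cacnb4, 0.75 for Ccser1, 1.31 for Sytl2 and 3.08 for Ppfibp2.

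The 10 lowest ratios included keratins of the upper epidermis, whereas the cornification list as a whole had 8 of 16 genes above 0, 4 past 2-fold lower (Krtdap, Krt1, Krt10 and Dmkn) and a median of 0.03. Krt77 was at 211, 2.48 and 15.6 CPM in CON, UV and Rux (log2 ratio of UV to CON -6.19, -8.7 to -4.85). Krtdap, a secreted keratinocyte peptide, was at 800, 11.6 and 58.7 CPM, Krt1 at 297, 5.79 and 24.8 CPM, and Krt10 at 562, 23.1 and 96.3 CPM. CON was highest for each, but 1 CON cell held 85% of its Krt77 UMIs, 87% of Krt1 and 81% of Krt10. In all members the ratios of Krt77, Krt1 and Krt10 were -6.19, -5.58 and -4.58. They were -3.36, -3.71 and -1.80 with the rule applied after thinning. Without members over 0.1% of UMIs from Krt1, Krt10, Krtdap and Krt79 they were -2.76, -2.13 and -1.30, a selection on some of the same genes. UMIs of these genes were also most frequent in fibroblasts of CON, from a source that was not tested. A Krt1 UMI was seen in 14.7% of fibroblasts in CON against 2.16% in UV and 5.07% in Rux, and a Krt10 UMI in 32.5% against 16.6% and 26.3%. For Ly6g6c, a surface protein of differentiating epithelium, at 226, 14.1 and 118 CPM, the ratio of -3.97 became 1.42 without the members that had over 0.1% of UMIs from Krt1, Krt10, Krtdap and Krt79, and 1.10 with the rule applied after thinning. After thinning the ratios of Calm4, Fam25c and Ly6d were also above 0. Calm4, Fcgbp, Fam25c, Serpinb2 and Ly6d completed the 10 lowest.

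The immediate-early genes are transcription factors and feedback genes that stimulated cells switch on within minutes. All 32 listed genes had ratios of UV to CON above 0, as 47.4% of all genes compared did, the median was 0.76, and 5 were more than 2-fold higher. In keratinocytes with none of the 4 genes the median of the same list was -0.22. Those cells were not alike in the 2 libraries: their infundibulum and isthmus markers summed to 1489 CPM in CON and 9057 in UV, and their outer root sheath markers to 1275 and 5145.

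Nr4a3, an orphan nuclear receptor, was at 26.1 CPM in CON, 86.8 in UV and 56.5 in Rux (log2 ratio of UV to CON 1.72, 1.16 to 2.35). Btg2, an antiproliferative p53 target, was at 456, 1023 and 751 CPM (1.17, 1.02 to 1.31). Fosb, a subunit of the AP-1 transcription factor, was at 613, 1287 and 1122 CPM (1.07, 0.94 to 1.2). Maff and Klf10 were the other genes past 2-fold, at 1.18 and 1.12. Egr1 was at 804, 1559 and 1448 CPM (0.96, 0.85 to 1.07), Junb at 867, 1628 and 1147 CPM (0.91) and Fos at 1694, 2744 and 2432 CPM (0.7). In each of these genes CON was lowest and UV highest. In keratinocytes with none of the 4 genes Egr1 stood at 923, 792 and 892 CPM and Fos at 1931, 1108 and 1749, with UV lowest.

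A narrower set of members gave ratios in the same direction, but its make-up differed between the 2 libraries. Within subclusters 1 and 4 (53 CON and 27 UV cells) all 31 listed genes compared had ratios above 0, the median was 1.29 and 23 were past 2-fold higher, where 7.72% of all 3108 genes were past 2-fold higher and the median of all was -0.02. Egr1 stood at 849 CPM in CON and 2174 in UV there (1.35, 1.18 to 1.54). Nr4a3 stood at 24.8 and 149 CPM (2.53) and Egr3, a zinc finger factor of the same family as Egr1, at 91.6 and 399 CPM (2.11). Of these cells, subcluster 1 supplied 42 of 53 in CON and subcluster 4 supplied 22 of 27 in UV. The set thus compares mostly 1 subcluster with the other and does not hold the kind of cell fixed. This limit applies to each value of UV against CON given within subclusters 1 and 4.

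**Figure D4:**
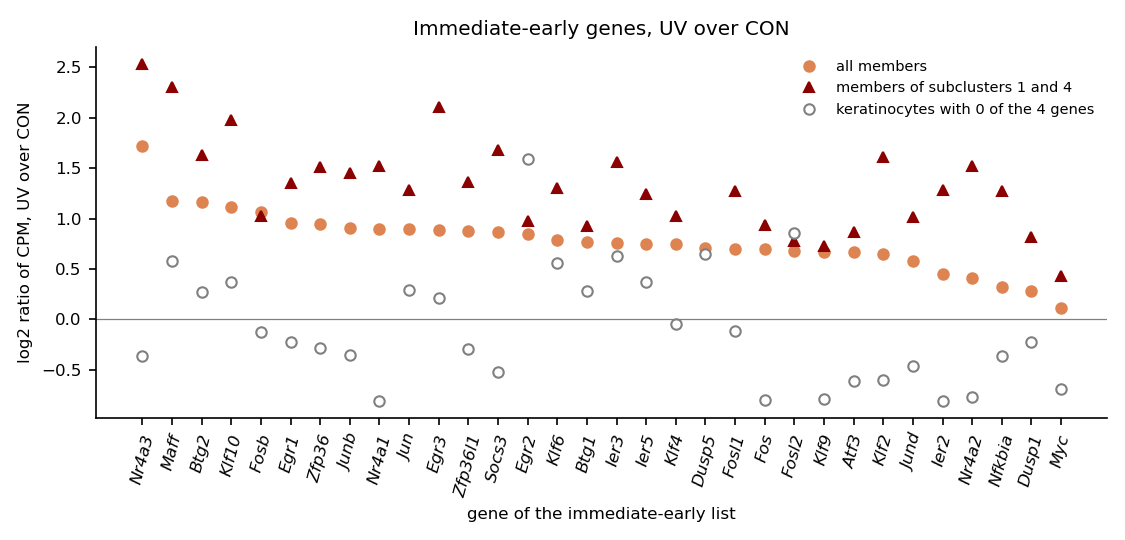
Log2 ratio of UV to CON for the 32 immediate-early genes in all members (filled circles), in members of subclusters 1 and 4 (triangles, where compared) and in keratinocytes with none of the 4 genes (open circles). Every filled circle lay above 0, with a median of 0.76, and the triangles had a median of 1.29.

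Of 42 listed JAK-STAT genes 31 could be compared between UV and CON. Of these 1 was past 2-fold higher and none past 2-fold lower, no larger a share than over all genes. Ratios were above 0 for 26 of the 31, where 47.4% of all genes were above 0, and the median was 0.26 against 0.12 in the other keratinocytes. Without the deepest member of each library the median was 0.14. Within subclusters 1 and 4 it was 0.58, with 3 of 16 genes past 2-fold higher and 2 past 2-fold lower. Over all genes there, 7.72% were past 2-fold higher and 4.21% past 2-fold lower. Socs2, a feedback inhibitor, was the gene past 2-fold in all members, with 16, 42 and 3 UMIs in CON, UV and Rux (1.43, 0.6 to 2.39). Osmr, the oncostatin M receptor, was at 102, 193 and 67.3 CPM (0.92, 0.61 to 1.25) and Socs3, a feedback inhibitor of gp130 receptors, at 172, 315 and 102 CPM (0.87, 0.63 to 1.12). For each of these 3 genes UV was highest and Rux lowest. Stat3 was at 334, 400 and 236 CPM (0.26), Jak1 at 194, 220 and 222 (0.18) and Jak2 at 162, 155 and 72.1 (-0.07).

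p53 targets and DNA damage genes had ratios above 0 for 16 of 18 genes, where 47.4% of all genes were above 0. The median was 0.51 against 0.27 in the other keratinocytes. Past 2-fold higher were 2, Cdkn2b and Btg2, where 4.11% of all genes were, and Btg2 is also in the immediate-early list. Cdkn2b, the cell cycle inhibitor p15, was at 9.48, 35.5 and 40.9 CPM (1.86, 0.96 to 2.96). It stood at 83.6 CPM in subcluster 6, against 11.5 in the other members. That subcluster took 6.19% of CON, 38.4% of UV and 39.5% of Rux members, and the part of this make-up was not tested. Trp53inp1, a p53-induced nuclear protein, was at 149, 281 and 346 CPM (0.91). Cdkn1a, the cell cycle inhibitor p21, was at 229, 277 and 232 CPM (0.27, 0.04 to 0.5) and Mdm2, which marks p53 for breakdown, at 71.9, 103 and 104 (0.52). Of 14 DNA repair genes 1 was past 2-fold, Parp1, a sensor of DNA breaks, at 129, 42.2 and 49 CPM (-1.6, -2.09 to -1.15), and the median was -0.13.

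Of 28 BMP and TGF-beta genes 5 were past 2-fold higher in UV and none past 2-fold lower, where 4.11% and 3.7% of all genes were. The median was 0.23. The inhibitory SMAD gene Smad7 was at 45.1, 124 and 105 CPM in CON, UV and Rux (1.45, 1.01 to 1.93) and Smad6 at 15.8, 41.3 and 21.5 CPM (1.37). Id2, a BMP target that blocks differentiation factors, was at 119, 284 and 284 CPM (1.25, 0.97 to 1.53). Smad1, a BMP signal carrier, was at 154, 311 and 222 CPM (1.01). CON was lowest for each of these 4 genes.

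Of 8 hedgehog genes compared, 1 was past 2-fold lower and none past 2-fold higher, where 3.7% and 4.11% of all genes were. Ratios were above 0 for 2 (Gas1 at 0.68 and Gli3 at 0.03), and the median was -0.42. Ptch1, the hedgehog receptor and itself a target of the pathway, was at 193 CPM in CON, 58.7 in UV and 31.2 in Rux (-1.71, -2.12 to -1.33). The target and effector Gli1 was at 64.8, 38 and 7 CPM (-0.76) and the effector Gli2 at 142, 77.7 and 75.3 CPM (-0.87). CON was highest for all 3. Gli1 stood at 81.2 and 82 CPM in subclusters 1 and 5, which were mostly CON, and at 3.06 to 19.6 CPM in the others. The part of this make-up in its ratio was not tested. Within subclusters 1 and 4 Ptch1 stood at 166 CPM in CON and 42 in UV (-1.95).

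Among 15 EGF and FGF genes 2 were past 2-fold higher and 2 past 2-fold lower, where 4.11% and 3.7% of all genes were. Hbegf, an EGF receptor ligand of wounded epithelium, was at 156, 555 and 525 CPM in CON, UV and Rux (1.83, 1.6 to 2.07), against a ratio of -0.1 in the other keratinocytes and 1.53 within subclusters 1 and 4. Tgfa, a second ligand, was at 8.69, 37.2 and 9.15 CPM (2.05), and 1 UV cell held 56% of its UV UMIs. Fgf1 was at 34, 9.92 and 9.15 CPM (-1.73), and Etv4, a target of FGF signals, had a ratio of -1.26.

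The antioxidant list had 3 genes of 21 past 2-fold higher, where 4.11% of all genes were, and a median of -0.03. Gclm and Gclc, the subunits of the enzyme that starts glutathione synthesis, were at 71.1, 179 and 178 CPM (1.33) and at 61.6, 140 and 128 CPM (1.18). Gsr, which recycles glutathione, was at 28.5, 78.5 and 72.1 CPM (1.45). Other glutathione enzymes of the list did not pass, such as Gpx3 at 0.80 and Gpx1 at -0.48. Of 21 basement membrane genes 1 was past 2-fold higher and 2 past 2-fold lower. Lamb1, a laminin chain, was at 29.2, 85.1 and 81.3 CPM (1.53), and the collagen IV genes Col4a1 and Col4a2 were at 70.3, 22.3 and 50.1 CPM (-1.64) and 53, 21.5 and 45.2 CPM (-1.28). Within subclusters 1 and 4, 4 of 15 basement membrane genes were past 2-fold higher, where 7.72% of all genes were, and none was past 2-fold lower. The median of the list was 0.24 there, against -0.16 in all members. No MHC class I gene of 11 was past 2-fold, and the median was 0.41, with B2m, the light chain, at 583, 859 and 1105 CPM.

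Secreted inflammatory genes had 11 compared, 3 past 2-fold higher in UV and 1 past 2-fold lower. Il24, a cytokine of the interleukin-10 family, had 2 UMIs in CON, 53 in UV and 0 in Rux. CON lay below the floor of 3 UMIs used here, so no exact ratio is given. Cxcl14, a chemokine made by resting epithelium, was at 341, 852 and 1400 CPM (1.32, 1.16 to 1.49), against a ratio of -0.31 in the other keratinocytes. For Cxcl2 and Csf3 most UMIs came from 1 cell, 78% in UV and 82% in CON. The WNT list of 19 genes had none past 2-fold and a median of 0, and the follicle stem compartment list of 18 had 2 past 2-fold higher, Id2 and Cdh3 (P-cadherin, 96.4, 201 and 91 CPM), and a median of 0.2.

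Rux and UV were compared next. This comparison shares the UV library with the first one, so the values of UV are common to both. Of 6359 genes, 62 (0.975%) were more than 2-fold higher in Rux and 180 (2.83%) more than 2-fold lower, with a median of -0.03. These shares are the background for each list count of Rux against UV below.

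Of 30 JAK-STAT genes compared between Rux and UV, 6 were past 2-fold lower and none past 2-fold higher, where 2.83% and 0.975% of all genes were. Of the 30, 22 had ratios below 0, where 45.9% of all genes were above 0, and the median was -0.43 against -0.18 in keratinocytes with none of the 4 genes. The 6 genes were Socs3, Osmr, Cish, Irf1, Il13ra1 and Jak2.

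Socs3 (chromosome 11, 117966079 to 117970047, minus strand), at 172, 315 and 102 CPM in CON, UV and Rux, had a log2 ratio of Rux to UV of -1.63 (-1.89 to -1.38). Rux lay below both other libraries, and the ratio in the other keratinocytes was -1.88. It was -1.42 without the deepest members and -1.02 with equal weight per cell. Osmr (chromosome 15, 6813577 to 6874969, minus strand), at 102, 193 and 67.3 CPM, had a ratio of -1.52 (-1.85 to -1.2), against -0.35 in the other keratinocytes. Cish, a feedback inhibitor of STAT5, was at 36.4, 71.9 and 30.7 CPM (-1.22, -1.74 to -0.73). UV was the highest library for all 3 genes.

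Irf1, an interferon-induced transcription factor (chromosome 11, 53770014 to 53778374, plus strand), was at 113, 131 and 58.1 CPM (-1.17, -1.53 to -0.81; other keratinocytes -2.08). Il13ra1, a subunit of interleukin-4 and interleukin-13 receptors, was at 168, 200 and 92 CPM (-1.12, -1.41 to -0.83). Jak2, a kinase that ruxolitinib inhibits (chromosome 19, 29251828 to 29313080, plus strand), was at 162, 155 and 72.1 CPM (-1.1, -1.43 to -0.77). In these 3 genes UV lay close to CON and Rux was lowest. Jak2 had a ratio of 0.04 in the other keratinocytes and of -0.52 with equal weight per member. Stat3 (-0.76), the kinase gene Pim1 (-0.72) and Myc (-0.98) were also below UV, whereas Jak1 stood at 220 and 222 CPM (0.01). Socs2 had 42 UMIs in UV and 3 in Rux, which equals the floor of 3 UMIs used here.

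STAT proteins are known to bind palindromes of the form TTCNNNGAA, which read the same on both strands. This motif was searched from 250 bases before to 50 bases after each start site in RefSeq promoters (GRCm38.p6), where 8.3% of 32851 promoters hold it. Of 42 listed JAK-STAT genes 34 were found there and 6 had a match (Bcl6, Cish, Ifnar1, Ifnar2, Irf1 and Socs3), against 9.55% of all 27025 genes. The windows of Socs3 and Irf1 are shown because both genes were past 2-fold lower in Rux and have a match upstream of the RefSeq start, with the motif in capitals, 5′ to 3′ on the gene's strand. The Socs3 window runs from 164 to 136 bases before the RefSeq start (chr11:117969502-117969530, minus strand), which lies inside the longer GENCODE span of the gene given above, and the Irf1 window from 100 to 72 bases before its RefSeq start (chr11:53769914-53769942, plus strand).
Socs3: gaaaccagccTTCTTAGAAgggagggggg
Irf1: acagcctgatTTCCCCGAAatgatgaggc
A match describes the letters and is neither a shown binding site nor a cause of the values above. Of the 6 genes past 2-fold lower, Cish also had matches, at and just after its start, and Osmr, Il13ra1 and Jak2 had none in this window. Bcl6 had matches and stood at 132 CPM in UV and 157 in Rux (0.24), and Ifnar1 and Ifnar2 had matches with ratios of -0.09 and -0.55.

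**Figure D5:**
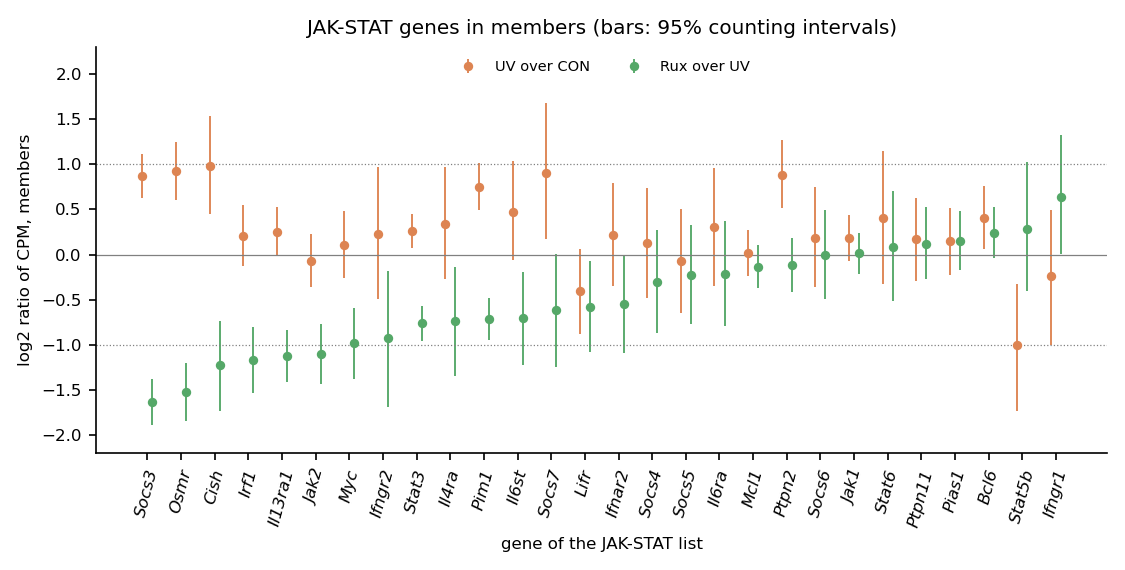
Log2 ratios of UV to CON and of Rux to UV with 95% counting intervals for 28 of the 29 JAK-STAT genes compared in both, ordered by the ratio of Rux to UV. Dotted lines mark 2-fold. Socs3 and Osmr lay at the low end for Rux to UV, at -1.63 and -1.52, and both comparisons use the same UV library.

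Subcluster 4, with an Lgr5 UMI in 68.7% and a Krt15 UMI in 95.5% of its cells, held 22 UV and 34 Rux cells. Within it 15 JAK-STAT genes could be compared, 10 had ratios below 0, 3 were past 2-fold lower and the median was -0.75, where 4.57% of all 3239 genes were past 2-fold lower. Socs3 stood at 584 CPM in UV and 295 in Rux there (-0.98, -1.29 to -0.69), Osmr at 287 and 86.5 (-1.72, -2.26 to -1.22) and Irf1 at 194 and 80.9 (-1.25, -1.83 to -0.7). Other lists moved in subcluster 4 too. All 5 fibroblast markers compared had ratios above 0 there, 3 were past 2-fold higher, where 3.27% of all genes were, and the median was 1.40. Of 7 infundibulum and isthmus genes 4 were past 2-fold lower, with a median of -1.12. The part of fibroblast RNA or of a shift in make-up was not tested. In subcluster 6 (28 UV and 45 Rux cells) the median of 15 genes was -0.11, and 1 was past 2-fold lower, Il13ra1 at 94.1 and 45.1 CPM, where 1.87% of all 3581 genes were. In subclusters 3 and 6 together (39 UV and 69 Rux cells) none of 21 genes was past 2-fold, 11 had ratios below 0 and the median was -0.0072. Osmr stood at 91.3 and 66.2 CPM in subcluster 6 (-0.47, -1.14 to 0.22) and Socs3 had 17 and 13 UMIs. Subcluster 4 held 55.2% of all member UMIs of Socs3. The difference between the subclusters was not tested.

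The 10 lowest ratios of Rux to UV included Fst, Ptn, Grem1 and Npnt, which encode secreted proteins. Fst, follistatin, which binds activin and BMP ligands (chromosome 13, 114452290 to 114458951, minus strand), was at 327 CPM in CON, 548 in UV and 114 in Rux (-2.27, -2.5 to -2.05). Rux was lowest, and within subcluster 4 Fst stood at 866 CPM in UV and 226 in Rux (-1.94). Ptn, the growth factor pleiotrophin, was at 736, 707 and 158 CPM (-2.16, -2.36 to -1.97) and at 1490 and 421 CPM within subcluster 4. Grem1, a BMP antagonist, was at 164, 89.3 and 23.1 CPM (-1.94, -2.49 to -1.43). Npnt, nephronectin, the bulge basement membrane ligand for the hair-raising muscle, was at 89.3, 160 and 36.6 CPM (-2.12, -2.55 to -1.73), and at 363 and 94 CPM within subcluster 4. For all 4 genes Rux was the lowest library. With a keratin minimum of 2%, which left 3 UV and 21 Rux cells, the ratio was 1.99 for Fst and 1.25 for Ptn.

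Epgn, an EGF receptor ligand, was at 144, 147 and 10.8 CPM (-3.74, -4.52 to -3.1), but 1 UV cell held 75% of its UV UMIs. Itga2, an integrin chain, was at 143, 164 and 26.4 CPM (-2.62), and subcluster 5, with 6 UV and 3 Rux cells, held 69.6% of its UMIs. With the rule applied after thinning the ratio of Itga2 was 2.47. Gadd45g, a stress and growth arrest gene, was at 130, 188 and 46.8 CPM (-2, -2.38 to -1.65) and had a ratio of -2.24 in the other keratinocytes. Sbno2, which interleukin-10 family cytokines induce through STAT3, was at 85.4, 150 and 37.7 CPM (-1.98, -2.41 to -1.58) with -1.72 in the others. Gm47283, an unnamed gene model, was at 191, 537 and 103 CPM (-2.37), and Shroom3, a regulator of apical cell shape, at 86.2, 103 and 14.5 CPM (-2.81). With the keratin minimum of 2% the ratios of Epgn, Shroom3, Itga2 and Gadd45g were also above 0.

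Among the 10 highest ratios of Rux to UV, Slc43a2, an amino acid carrier, was at 21.3, 71.1 and 178 CPM (1.32), and its ratio was -0.025 with the rule applied after thinning. The ratio of Slc43a2 was -0.50 with a keratin minimum of 2% and 2.33 within subclusters 1 and 4. Cst6, a cysteine protease inhibitor of the infundibulum, was at 415, 114 and 1416 CPM (3.63, 3.39 to 3.89), with ratios of 3.04 for Ly6g6c and 2.04 for Krt10. UV was lowest for these 3 genes. Subcluster 3 held 77.8% of the Cst6 UMIs and 67.3% of Ly6g6c, 1 CON cell held 85% of Cst6 in CON, and the ratio of Cst6 was -0.97 within subclusters 1 and 4. It was 0.12 with the rule applied after thinning, 0.95 without the members over 0.1% of UMIs from Krt1, Krt10, Krtdap and Krt79, and 1.19 without likely doublets. After thinning the ratio of Ly6g6c was -1.35 and that of Krt10 0.94. The ratio of Krt10 was 0.23 with at least 3 of the 4 genes and 0.28 without those members over 0.1%. With a keratin minimum of 2% it was 3.38. Cxcl1, a neutrophil chemokine, was at 53, 76.1 and 214 CPM (1.49, 1.16 to 1.84), and its ratio was 0.94 without the cells marked as likely doublets and 0.47 with a keratin minimum of 0.1%. Within subclusters 1 and 4 the ratio of Cxcl1 was 2.18. Pcp4, Skint3, Sprr1a and Lbh were also among the 10 highest, and the ratios of Skint3 and Sprr1a were below 0 with the rule applied after thinning, as were those of Pcp4, Skint3 and Sprr1a with a keratin minimum of 2%.

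Of 32 immediate-early genes 5 had ratios of Rux to UV above 0 and 3 were past 2-fold lower, with a median of -0.32, which was -0.052 with equal weight per cell. The 3 were Socs3, Egr3 (134, 248 and 92.6 CPM; -1.42, -1.7 to -1.15) and Klf2, a factor known from resting cells (58.5, 91.8 and 40.9 CPM; -1.16). Egr1 (-0.11) and Fos (-0.17) stood near their UV levels. Of 18 p53 and DNA damage genes Gadd45g, Gadd45b (448, 596 and 193 CPM; -1.63) and the death receptor gene Fas (26.1, 37.2 and 11.3 CPM; -1.7) were past 2-fold lower, and none was past 2-fold higher.

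The median of 27 BMP and TGF-beta genes was -0.24. Of these, 4 were past 2-fold lower in Rux and none past 2-fold higher, where 2.83% and 0.975% of all genes were. Besides Fst and Grem1 these were Ltbp1, which stores TGF-beta in the matrix (84.6, 83.5 and 14 CPM; -2.56, -3.26 to -1.94), and the ligand gene Tgfb2 (26.1, 33.1 and 8.61 CPM; -1.91). Of 8 hedgehog genes Gli1 (-2.4, -3.45 to -1.53) and the co-receptor gene Boc (119, 91.8 and 39.8 CPM; -1.2) were past 2-fold lower. For both, the level in UV already lay below CON. Gli1 was highest in subclusters 1 and 5, which held 5 and 6 UV cells and 5 and 3 Rux cells. Within subcluster 4, 5 hedgehog genes could be compared, none was past 2-fold and the median was -0.35. Within subclusters 1 and 4, 1 of 5 was past 2-fold lower.

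Of 21 basement membrane genes 4 were past 2-fold lower in Rux and 2 past 2-fold higher, where 2.83% and 0.975% of all genes were. The median was -0.52 against 0.43 in the other keratinocytes. The lower genes included, besides Npnt, the integrin chain gene Itga3 (59.3, 62 and 23.7 CPM; -1.38) and Frem2 (-1.08). Col4a1 and Col4a2 were higher, at 1.15 and 1.05. With equal weight per cell the list median was -0.22. Of 22 antioxidant genes 3 were past 2-fold lower: the metallothioneins Mt1 (1695, 2595 and 893 CPM; -1.54) and Mt2 (806, 1255 and 537 CPM; -1.22), and the thioredoxin reductase gene Txnrd1 (79.8, 118 and 44.7 CPM; -1.4). UV was highest for all 3, and their ratios in the other keratinocytes were -1.26, -0.95 and -1.62. Gclm, Gclc and Gsr stood at their UV levels, at -0.02, -0.13 and -0.13.

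Among MHC class I genes only Nlrc5, the activator of class I transcription, was past 2-fold lower, at 62.4, 89.3 and 29.1 CPM (-1.61, -2.12 to -1.13), and the median of 11 genes was -0.01. Il24 had 0 UMIs in Rux. With the floor of 3 UMIs, equal to 1.61 CPM, it was at least 27.1-fold lower than the 43.8 CPM in UV. Csf1, the macrophage growth factor, was at 16.6, 19.8 and 69.4 CPM (1.78, 1.17 to 2.5) and was highest in Rux. Of 18 follicle stem compartment genes none was past 2-fold higher and 3 were past 2-fold lower, Gli1, Postn (559, 654 and 207 CPM; -1.66) and Cdh3 (-1.14), with a median of -0.33. Of 18 WNT genes 1 was past 2-fold lower, Lgr6, a receptor related to Lgr5 (101, 64.5 and 20.5 CPM; -1.65), and the median was -0.33.

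Against CON, with the UV library left aside, 297 of 6558 genes (4.53%) were more than 2-fold higher in Rux and 400 (6.1%) more than 2-fold lower, with a median of -0.09. With median-of-ratios scaling the counts were 374 higher and 330 lower and the median was 0.00653. Immediate-early genes had ratios of Rux to CON above 0 for 28 of 32, where 42.7% of all genes were above 0, with a median of 0.49. JAK-STAT genes had a median of -0.23 over 29 genes, with 1 past 2-fold higher and 1 lower. Hedgehog genes had a median of -0.9 over 8, with 3 past 2-fold lower and none higher. Each library enters 2 of the 3 comparisons, so these values are set side by side and are not independent.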

How the data were processed

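Whole back skin was profiled as 1 Chromium 3′ v3.1 library for each of CON, UV and Rux. The UMI counts are as deposited: the authors ran Cell Ranger against mm10, version 6.1.2 per the submitters' processing notes and 7.0.0 per the file headers, and used Seurat 5.3.0 downstream. Ambient RNA removal is not given in the sources used here, and no deposited column lacked a sample. Members and gene lists were chosen with earlier results of these data known.

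Cells were filtered as stated above (500 genes, 10% mitochondrial UMIs), and UMIs of members were summed per library to CPM. Ratios had 0.5 UMI added, and genes were compared from a mean of 20 CPM and 50 UMIs. Named genes were the 10 highest and 10 lowest ratios from 50 CPM and 100 UMIs, the rule genes, and up to 4 genes of each list with the largest ratios, plus pathway members that the text needed, and some are not reported here. Apoe and the subcluster leaders were named after their values were seen. Intervals were exact (Clopper-Pearson, Poisson, conditional binomial) at 95% and cover counting error only. Likely doublets were marked with Scrublet at 0.8% per 1000 cells and stayed in (5, 0 and 9 members marked). Members were clustered in scanpy at Leiden resolution 0.6 after the 4 rule genes were left out. The ratio step was tested on simulated data. Alternatives covered cell filters, doublets, the rule, thinning to 2000 UMIs, scaling, cell weight and the filter on low values. Python 3.11.15, numpy 2.4.6, scipy 1.17.1, pandas 2.3.3, scanpy 1.11.5 and matplotlib 3.10.9 were used.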

Additional observations from a re-analysis of the deposited data

Results flagged for a closer look

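Of the named genes, 4 passed 2-fold in opposite directions in members and in keratinocytes with none of the 4 rule genes. The difference between the 2 kinds of cell was not tested. In UV against CON this was Ly6g6c, with a log2 ratio of -3.97 in members and 1.05 in the others. It was 1.42 in members without those over 0.1% of UMIs from Krt1, Krt10, Krtdap and Krt79 and 1.10 after thinning, the direction of the others. In Rux against UV it was Cst6, a cysteine protease inhibitor, at 3.63 in members and -1.95 in the others, but at 0.12 in members after thinning, 0.95 without those same members and -0.97 within subclusters 1 and 4. Lbh, a transcription cofactor of the WNT pathway, was at 1.18 and -1.13. In members it was at 0.63 with a keratin minimum of 0.1% and at 1.84 within subclusters 1 and 4. The EGF receptor ligand gene Epgn was at -3.74 and 2.13, and 1 UV member held 75% of its UV UMIs. With a keratin minimum of 2% (3 UV and 21 Rux cells) Epgn was at 1.74 in members.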

How the results depend on the processing

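With 1 library a group, leaving out a replicate was not possible and no value carries replicate error. No paired analysis was possible because the labels give no replicate numbers. The totals without keratins and mitochondrial genes turned no direction. Median-of-ratios scaling turned the sign of 8 medians, all within 0.1 of 0. These were the medians of all genes in the 3 comparisons, of the antioxidant list in UV against CON and Rux against UV, of WNT genes in UV against CON, and of MHC class I and secreted inflammatory genes in Rux against UV. The alternatives with a keratin minimum of 0.1%, without the deepest members, without members over 0.1% of UMIs from Krt1, Krt10, Krtdap and Krt79 (called suprabasal here) and within subclusters 1 and 4 were chosen after seeing the data, and the cause of the shifts below was not tested.

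Shares of kept cells in CON, UV and Rux were 0.559%, 0.417% and 0.536% with at least 3 of the 4 genes, 2.04%, 1.55% and 2.04% with a keratin minimum of 0.1%, and 0.00873%, 0.0272% and 0.212% (1, 3 and 21 cells) with one of 2%. After thinning, UV and Rux were at 0.356% and 0.399%.

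Counts of genes past 2-fold moved by over 1.5 times as follows. With a keratin minimum of 0.1%, UV against CON had 129 higher and 107 lower (1.92% and 1.59% of genes) and Rux against CON 257 lower (3.85%). With 2%, far fewer genes were compared and the shares were larger: UV against CON had 45 and 23 of 165 genes (27.3% and 13.9%), Rux against UV 50 lower of 1209 (4.14%) and Rux against CON 166 lower of 1018 (16.3%). After thinning, UV against CON had 509 lower (7.64%) and Rux against UV 114 higher (2.73%). From 100 CPM, where fewer genes are compared, the counts higher and lower were 78 and 38, 10 and 39, and 94 and 61 in the 3 comparisons. Within subclusters 1 and 4, UV against CON had 131 lower (4.21% of genes) and Rux against CON 191 lower (5.2%), shares close to those of all members, and Rux against UV had 127 higher (3.42%). Clustering at resolution 0.3 gave 3 subclusters.

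List medians for UV against CON moved without the deepest members (JAK-STAT 0.14, immediate-early 0.64), without suprabasal members (immediate-early 0.60, basement membrane -0.29, cornification 0.54, a list that holds genes used to leave those members out), with equal weight per cell (WNT -0.28, basement membrane -0.35, cornification 0.50) and from 100 CPM (DNA repair 0.32, from 2 genes). Within subclusters 1 and 4 they were 1.29 for immediate-early, 0.58 for JAK-STAT, 0.75 for MHC class I and -0.21 for WNT genes. The sign turned there for heat shock (0.57, from -0.12), basement membrane (0.24, from -0.16) and DNA repair genes (0.38 from 2 genes, against -0.13). It also turned for infundibulum and isthmus (0.35, from -1.15) and clock genes (-0.15, from 0.17), among others. For Rux against UV, equal weight gave -0.052 for immediate-early and -0.22 for basement membrane genes. Subclusters 1 and 4 gave -0.22 for basement membrane and -0.35 for MHC class I genes. There the sign turned for EGF and FGF (0.40, from -0.30 in all members) and for cornification (-0.089, from 0.32). So it did for infundibulum and isthmus (-0.97, from 0.65), secreted inflammatory (0.71, from -0.05) and DNA repair genes (0.24, from -0.10), among others.

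Single genes turned their direction as follows. With a keratin minimum of 2%, UV against CON was -1.75 for Slpi and -0.16 for Sorbs2, and Rux against UV was -1.23 for Pcp4, -0.47 for Skint3, -0.50 for Slc43a2, -1.80 for Sprr1a, 1.74 for Epgn, 1.74 for Shroom3, 0.15 for Itga2, 1.99 for Fst, 1.25 for Ptn and 0.00998 for Gadd45g. After thinning, UV against CON was 0.25 for Calm4, 1.10 for Ly6g6c, 0.33 for Fam25c and 0.056 for Ly6d, and Rux against UV was -1.35 for Ly6g6c, -0.21 for Skint3, -0.025 for Slc43a2, -2.23 for Sprr1a and 2.47 for Itga2. Without suprabasal members Ly6g6c was at 1.42. Within subclusters 1 and 4, Pthlh was at -0.75, Ly6d at 0.53 and Cst6 at -0.97.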

Other observations

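Apoe, the lipid carrier apolipoprotein E, was at 4657 CPM in CON, 10252 in UV and 22800 in Rux members, with a log2 ratio of UV to CON of 1.14 (1.09 to 1.18) and of Rux to UV of 1.15 (1.12 to 1.18). In keratinocytes with none of the 4 genes it was at 5768, 6779 and 6556 CPM, so the libraries stood much closer there. Its level was 52020 CPM in subcluster 3, 12637 in subcluster 6 and between 2957 and 6704 in the other 4.

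Of 17 genes of glycolysis and hypoxia, 3 were past 2-fold higher in UV than in CON: Hif1a, the hypoxia-inducible factor, at 247, 526 and 357 CPM in CON, UV and Rux (1.09, 0.89 to 1.29), its target Vegfa, an angiogenic factor, at 11.1, 32.2 and 16.1 (1.51), and Ndrg1, a stress-induced gene, at 102, 322 and 323 (1.66). In Rux against UV the hexokinase gene Hk2, at 209, 364 and 165 CPM (-1.14, -1.36 to -0.93), and the glucose transporter gene Slc2a1, at 41.1, 51.3 and 24.2 (-1.08), were past 2-fold lower, Egln3, an oxygen sensor, was past 2-fold higher at 6.32, 12.4 and 53.3 CPM (2.06, 1.31 to 2.99), and the median of 18 genes was 0.04. Of 16 circadian clock genes, Cry1 (19.8, 48.8 and 54.9 CPM), Bhlhe41 (21.3, 50.4 and 44.1) and Nfil3 (94.1, 199 and 157) were past 2-fold higher in UV than in CON, and Rora was past 2-fold lower (372, 179 and 193 CPM; -1.06, -1.3 to -0.82). Of 20 heat shock and folding genes, Hspa1a (41.1, 113 and 94.7 CPM) and Hspa1b (41.1, 94.2 and 95.3 CPM), the inducible chaperones, were past 2-fold higher in UV, and Hsp90b1, a chaperone of the endoplasmic reticulum, was past 2-fold lower (341, 151 and 165 CPM). The list medians for UV against CON were -0.06 for glycolysis and hypoxia, 0.17 for the clock and -0.12 for heat shock genes, beside -0.03 over all genes compared. Within subclusters 1 and 4 these list medians turned sign, at 0.10, -0.15 and 0.57.

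The outer root sheath list had 10 genes compared. Gjb2, the gap junction gene of connexin 26, was at 60.9, 209 and 180 CPM, with a log2 ratio of UV to CON of 1.77 (1.41 to 2.17). It was among the leading genes of subcluster 6, at 437 CPM against 53.9 in the other members. Krt75, a companion layer keratin, was at 36.4, 4.96 and 77.5 CPM (-2.77, -4.39 to -1.64), and 1 CON cell held 52% of its CON UMIs. Of 9 Notch genes none was past 2-fold in UV against CON and the median was 0. Of 22 interferon-stimulated genes 5 had enough UMIs to compare, none was past 2-fold and the median was -0.12. Genes of quiescence and ageing of follicle stem cells had 13 compared, 1 past 2-fold higher and a median of 0.46.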
